A study of Mus musculus with 12 samples.

Results

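In all, 10 genes of bone-forming and bone-resorbing cells were followed in murine hip cartilage before and after mechanical injury. The 7 osteoblast genes were Runx2, Sp7, Alpl, Ibsp, Spp1, Dmp1 and Phex, and the 3 osteoclast genes were Acp5, Ctsk and Calcr. They were chosen by name, with earlier results of these data known. Taking every probe that carried the gene's symbol gave 16 of the 45281 probes on the array, for 10 of its 28772 gene names. The normalized table held 12 of these probes for 9 of the genes, among 21004 probes for 14340 genes. The 3 Calcr probes and 1 of the 2 Runx2 probes lay outside it and were not detected on any of the 12 arrays. Alpl was listed under its older name Akp2, and 1 of the 2 Sp7 probes under the older name C22.

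Osteoblasts make bone. RUNX2 and then osterix, the product of Sp7, switch on their gene programme, after which the cells lay down type I collagen with bone sialoprotein (Ibsp) and osteopontin (Spp1), and tissue-nonspecific alkaline phosphatase (Alpl) removes the pyrophosphate that blocks mineral. Osteoclasts are multinucleated cells of the macrophage lineage that form when RANK ligand binds RANK, and they dissolve bone by acid and by proteases such as cathepsin K. In the young femoral head the cartilage lies against the bone of the growing epiphysis, and hypertrophic chondrocytes also express Runx2, Ibsp, Spp1 and Alpl.

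RNA of hip cartilage of C57BL6 mice aged 4 to 6 weeks was hybridized to Illumina mouse BeadChips, arrays whose probes are coated on beads. The 12 arrays form 4 groups of 3, control and injured hips of WT mice and control and injured hips of mice lacking Mapk9 (Mapk9 KO). Mapk9 encodes JNK2, a stress-activated kinase of the JNK family. Injury was the avulsion of the femoral epiphysis, and the study's question for the arrays was which genes respond to it. As the paper describes it, cartilage was avulsed and then either frozen at once (control) or kept in culture for 4 h (injured). The controls were thus avulsed as well, and injury and culture cannot be told apart in any comparison of injured with control. The methods describe each replicate as 6 hips combined from 3 mice, and they describe the control and injured sets without naming the genotype. How the Mapk9 KO allele was made is not given in the sources used here.

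Between 16930 and 18969 probes were detected per array, taking a detection p under 0.05 against the negative control beads, and the number of arrays limits the precision. Levels below are log2 normalized signals, given per array in the order of replicates 1 to 3. A difference passed the threshold with a fold change above 2 and a Benjamini-Hochberg adjusted p under 0.05 from limma over all 21004 probes, and a gene passed with at least 1 probe. Of the 2 Mapk9 probes in the table, the brighter fell by 1.57 ± 0.21 (SE) on the log2 scale in Mapk9 KO controls against WT controls (adjusted p = 0.0151, limma) and by 1.57 ± 0.18 in injured hips (adjusted p = 0.00485, limma). It was still detected on all 6 Mapk9 KO arrays, at 8.69 to 9.28, and the dimmer probe was not detected on any of them.

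Post injury, Runx2 rose and the main Sp7 probe, Phex and Acp5 fell in both genotypes, and Ctsk passed the threshold in Mapk9 KO alone. In WT, 4 of the 9 genes in the table passed, 1 rising and 3 falling, where 17.3% of all 14340 genes passed (8.72% with a probe that rose and 8.56% with a probe that fell). In Mapk9 KO, 5 of the 9 passed, 1 rising and 4 falling, where 21.8% of all genes passed (11.0% rising and 10.8% falling). Alpl, Ibsp, Spp1 and Dmp1 did not pass in either genotype. With Student's test of each probe alone in place of limma, on the same values with the same adjustment, 1 gene passed in WT, Sp7, and 5 in Mapk9 KO. Injured and control arrays did not overlap at 6 of the 12 probes in WT and at 7 of 12 in Mapk9 KO, where 41.2% and 49.7% of all probes did not overlap. In this bulk RNA, fewer cells of a type and less RNA per cell cannot be told apart.

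**Figure D1:**
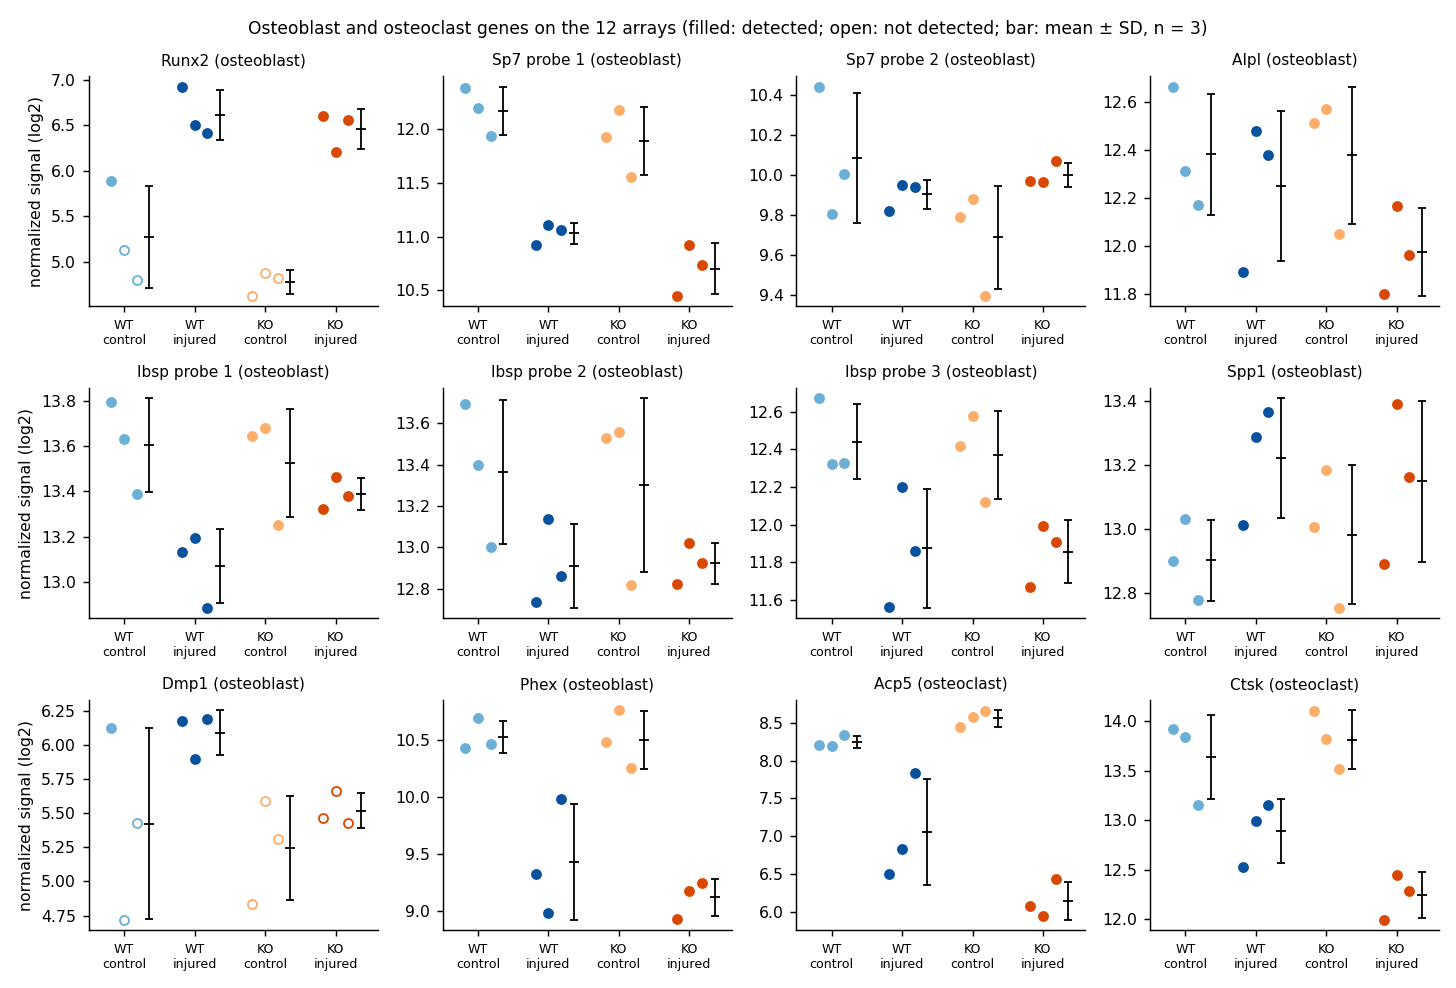
Each panel plots 1 probe of an osteoblast or osteoclast gene, with the log2 normalized signal of every array on the y axis and the 4 groups of 3 arrays on the x axis. Filled points were detected (detection p under 0.05), open points were not, and bars give the mean ± SD. Runx2 sits between 6.20 and 6.93 on the injured arrays against 4.63 to 5.89 on the controls, while Acp5 sits between 5.94 and 7.84 on the injured arrays against 8.20 to 8.65.

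Runx2, the master transcription factor of osteoblasts, was read by a dim probe. This probe is shown because the only rise among the 9 genes rests on its 50 bases, which start at base 1691 of the transcript it was designed on.
Runx2 probe: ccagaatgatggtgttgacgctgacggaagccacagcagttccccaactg
Its levels were 5.89, 5.13 and 4.81 in WT controls, 6.93, 6.50 and 6.41 in WT injured hips, 4.63, 4.88 and 4.82 in Mapk9 KO controls and 6.61, 6.20 and 6.56 in Mapk9 KO injured hips. Every injured array was above every control array of its genotype, and the highest control was WT control replicate 1, the only control array on which the probe was detected. In WT the fitted log2 fold change was 1.34 ± 0.29 (SE, adjusted p = 0.00766, limma), set against controls of which 1 of 3 was detected, so its size is uncertain. In Mapk9 KO the probe was not detected on any control array, so the change is a bound: injured hips were at least 1.44-fold higher (adjusted p = 4.43e-05, limma). Such bounds set the mean of the brighter group against the dimmer group's mean with each array raised to its lowest signal among detected probes. The threshold was applied to the fitted log2 difference of 1.68 ± 0.18 (SE). With quantile normalization and no background correction the log2 fold change was 0.51 in WT and 0.54 in Mapk9 KO, and Runx2 did not pass.

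Sp7 encodes osterix, the zinc finger factor that acts after RUNX2, and its 2 probes disagreed. The brighter probe read 12.39, 12.20 and 11.94 in WT controls and 10.92, 11.11 and 11.07 in WT injured hips. In Mapk9 KO it read 11.93, 12.18 and 11.56 in controls and 10.45, 10.92 and 10.74 in injured hips. All injured arrays were below all control arrays of both genotypes, by 1.14 ± 0.20 on the log2 scale in WT, a fall of 2.21-fold (adjusted p = 0.0028, limma), and by 1.19 ± 0.21 in Mapk9 KO, 2.28-fold (adjusted p = 0.00128, limma). The other Sp7 probe gave log2 fold changes of -0.18 ± 0.22 in WT (adjusted p = 0.591, limma) and 0.31 ± 0.18 in Mapk9 KO (adjusted p = 0.214, limma). At this probe the WT groups overlapped, and the Mapk9 KO injured arrays, at 9.96 to 10.07, were above the controls, at 9.40 to 9.88. The change of Sp7 is therefore that of 1 probe.

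Alkaline phosphatase, bone sialoprotein and osteopontin, which act in laying down and mineralizing the matrix, did not pass the threshold at any of their 5 probes. Alpl was at 12.17 to 12.66 in WT controls and 11.89 to 12.48 in WT injured hips, and the groups overlapped in both genotypes. Its log2 fold change was -0.13 (95% confidence interval -0.65 to 0.38) in WT and -0.40 (-0.84 to 0.04) in Mapk9 KO. Its direction in WT was not stable: without WT control replicate 1 the value was 0.00752, and without WT injured replicate 1 it was 0.046.

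The 3 Ibsp probes lay below control in both genotypes but within the 2-fold limit, by 0.45 to 0.57 on the log2 scale in WT and by 0.14 to 0.51 in Mapk9 KO. The smallest adjusted p of the 3 was 0.0853 in WT and 0.0525 in Mapk9 KO (limma). When both genotypes were averaged over all 12 arrays, the log2 fold changes were -0.33 ± 0.13, -0.42 ± 0.16 and -0.54 ± 0.14, with adjusted p of 0.0438, 0.0497 and 0.00645 (limma), again below the fold limit. Spp1 was at 12.78 to 13.03 in WT controls and 13.01 to 13.37 in WT injured hips, and at 12.76 to 13.19 and 12.89 to 13.39 in Mapk9 KO. Its log2 fold change was 0.32 (-0.12 to 0.76) in WT and 0.17 (-0.27 to 0.60) in Mapk9 KO, intervals that exclude a 2-fold change in either direction.

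Dmp1 and Phex are products of late osteoblasts and osteocytes, a matrix protein and a membrane endopeptidase that both restrain the phosphate hormone FGF23. Dmp1 was at the limit of detection, being detected on WT control replicate 1, the 3 WT injured arrays and no Mapk9 KO array. Its levels were 6.12, 4.72 and 5.43 in WT controls and 6.18, 5.90 and 6.19 in WT injured hips, and the groups overlapped through control replicate 1. The log2 fold change in WT was 0.67 ± 0.32 (adjusted p = 0.156, limma). Without that array the fit passed the threshold, but both remaining controls were below detection, and the injured hips were then at least 1.09-fold higher. In Mapk9 KO no fold is given, since the probe was below detection in both groups.

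Phex read 10.43, 10.69 and 10.46 in WT controls and 9.33, 8.98 and 9.98 in WT injured hips. In Mapk9 KO it read 10.48, 10.76 and 10.25 in controls and 8.93, 9.18 and 9.25 in injured hips. Every injured array was below every control array, with WT injured replicate 3 the nearest to the controls. Phex fell by 1.10 ± 0.26 on the log2 scale in WT, 2.14-fold (adjusted p = 0.0127, limma), and by 1.38 ± 0.19 in Mapk9 KO, 2.60-fold (adjusted p = 0.000243, limma). The WT call was lost without WT injured replicate 2, when the log2 fold change was -0.87.

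Acp5 encodes tartrate-resistant acid phosphatase, the enzyme by which osteoclasts are stained. Its levels were 8.21, 8.20 and 8.34 in WT controls and 6.50, 6.84 and 7.84 in WT injured hips, and 8.44, 8.58 and 8.65 in Mapk9 KO controls and 6.08, 5.94 and 6.43 in Mapk9 KO injured hips. The control arrays lay close together, all injured arrays were below them, and WT injured replicate 3 was the highest of the injured arrays. Acp5 fell by 1.19 ± 0.31 on the log2 scale in WT, 2.28-fold (adjusted p = 0.0191, limma), and by 2.40 ± 0.19 in Mapk9 KO, 5.29-fold (adjusted p = 4.06e-06, limma). In WT the call was lost without injured replicate 1 (-0.91), injured replicate 2 (-1.08) or control replicate 1 (-1.21), and with quantile normalization without background correction (-0.69).

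Ctsk encodes cathepsin K, the protease with which osteoclasts digest collagen. Its levels were 13.92, 13.84 and 13.15 in WT controls and 12.53, 12.99 and 13.15 in WT injured hips, which met at control replicate 3 and injured replicate 3. In Mapk9 KO they were 14.11, 13.82 and 13.52 in controls and 11.99, 12.45 and 12.28 in injured hips, with no overlap. Ctsk fell by 1.57 ± 0.21 on the log2 scale in Mapk9 KO, 2.98-fold (adjusted p = 0.00017, limma). In WT the log2 fold change was -0.75 ± 0.26 (adjusted p = 0.0636, limma) and did not pass, whereas with quantile normalization of the signals it passed, at -1.02 with background correction and -1.01 without. Calcr, the calcitonin receptor of mature osteoclasts, was not detected on any array at any of its 3 probes and has no normalized value.

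**Figure D2:**
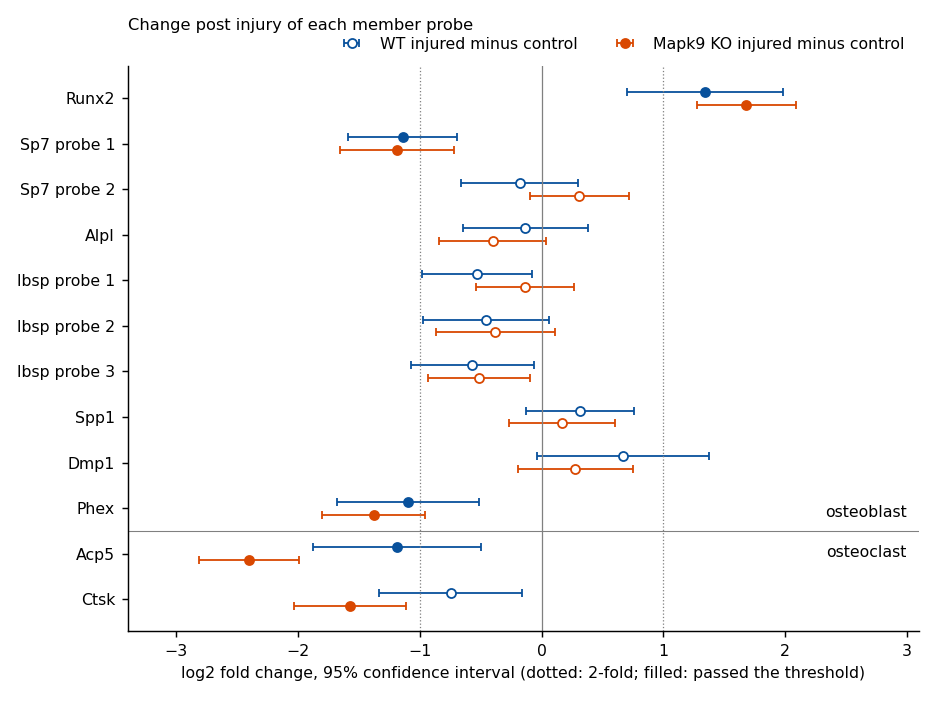
The log2 fold change of injured against control (x axis) is shown for each of the 12 probes (y axis) in WT and in Mapk9 KO, with 95% confidence intervals from limma, 3 arrays per group. Filled points passed the threshold, and dotted lines mark 2-fold. Runx2 lies right of the upper line in both genotypes, Acp5 and Ctsk lie to the left of 0, and the Mapk9 KO points of Acp5 and Ctsk lie further left than those of WT, differences that did not pass the interaction test. All points of Runx2 and Dmp1 rest in part or, for Dmp1 in Mapk9 KO, entirely on arrays where the probe was not detected.

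Set side by side, the osteoblast genes that passed went in both directions, and the measured osteoclast genes lay below control in both genotypes. At the main probe (that with the highest mean), the 5 osteoblast genes detected on all 12 arrays had log2 fold changes from -1.14 to 0.32 in WT, with a median of -0.53, and from -1.38 to 0.17 in Mapk9 KO, with a median of -0.40. Runx2 and Dmp1, which were below detection on some arrays, are left out of these ranges. The 2 osteoclast genes were at -0.75 and -1.19 in WT and at -1.57 and -2.40 in Mapk9 KO. The size of the Acp5 fall in Mapk9 KO (-2.40) is uncertain, as its injured arrays lay near the detection limit. The median over all genes was -0.02 in WT and -0.04 in Mapk9 KO. In Mapk9 KO none of these 5 genes was as low as either osteoclast gene, whereas in WT Sp7 (-1.14) and Phex (-1.10) were lower than Ctsk (-0.75). With 2 osteoclast genes this is a description of those genes.

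Genotype made no difference that passed the threshold for any of the 9 genes, in control or in injured hips, where 0.160% and 0.216% of all genes passed. Acp5 in controls was at 8.20 to 8.34 in WT and 8.44 to 8.65 in Mapk9 KO, a log2 difference of 0.31 ± 0.20 (adjusted p = 0.883, limma). In injured hips the order was the other way round, with Acp5 lower in Mapk9 KO by 0.91 ± 0.31 (adjusted p = 0.288, limma) and Ctsk lower by 0.65 ± 0.21 (adjusted p = 0.267, limma), neither of which passed. The injured arrays of the 2 genotypes did not overlap at 5 of the 12 probes, those of Acp5, Ctsk and Dmp1 and 1 probe each of Ibsp and Sp7, where 16.8% of all probes did not overlap. The difference between the 2 injury effects was -1.21 ± 0.38 for Acp5 (95% confidence interval -2.04 to -0.39, adjusted p = 0.345, limma) and -0.83 ± 0.35 for Ctsk (-1.57 to -0.08, adjusted p = 0.45, limma). By limma, 0 of the 21004 probes passed for this interaction and 2088 (9.94%) had an unadjusted p under 0.05, so the larger falls of Acp5 and Ctsk in Mapk9 KO were not separated from WT by the test over all probes. With the replicate number as a block 112 probes passed, and without WT control replicate 3 there were 242, but no member was among them. With the block the adjusted p was 0.104 for Acp5 and 0.276 for Ctsk (limma). For the 5 osteoblast genes detected on all 12 arrays the interaction at the main probe lay between -0.28 and 0.39. Over both genotypes together, the average injury effect passed for Runx2, Sp7, Phex, Acp5 and Ctsk, 5 of 9 genes, where 18.4% of all genes passed.

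Stretches of genome around the start site are shown for Runx2, the member that rose, and for the 2 measured osteoclast genes, and were searched for the sequences that RUNX proteins and MITF, the osteoclast factor that acts on Acp5 and Ctsk, are known to bind. They are from RefSeq for the build GRCm38.p6, 250 bases before the start site and 50 from it, all 5′ to 3′ on the strand of the gene. Capitals mark the RUNX core TGTGGT or the MITF E-boxes TCATGTG and TCACGTG, on either strand. The Runx2 stretch is chr17:44814578-44814877 on the minus strand, the Acp5 stretch is chr9:22130549-22130848 on the minus strand and belongs to 1 of its 3 listed starts, and the Ctsk stretch is chr3:95498960-95499259 on the plus strand.
Runx2: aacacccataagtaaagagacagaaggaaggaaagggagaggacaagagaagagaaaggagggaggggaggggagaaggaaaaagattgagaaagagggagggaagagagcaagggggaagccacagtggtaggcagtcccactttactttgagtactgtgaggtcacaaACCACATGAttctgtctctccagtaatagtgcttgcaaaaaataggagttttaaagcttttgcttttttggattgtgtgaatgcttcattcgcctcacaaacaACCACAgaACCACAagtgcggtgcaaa
Acp5: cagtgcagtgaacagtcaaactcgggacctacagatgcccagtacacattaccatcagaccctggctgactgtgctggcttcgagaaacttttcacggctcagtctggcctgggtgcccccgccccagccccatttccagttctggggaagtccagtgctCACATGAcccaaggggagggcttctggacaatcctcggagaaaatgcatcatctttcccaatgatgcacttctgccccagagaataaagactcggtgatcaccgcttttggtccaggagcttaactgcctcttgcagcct
Ctsk: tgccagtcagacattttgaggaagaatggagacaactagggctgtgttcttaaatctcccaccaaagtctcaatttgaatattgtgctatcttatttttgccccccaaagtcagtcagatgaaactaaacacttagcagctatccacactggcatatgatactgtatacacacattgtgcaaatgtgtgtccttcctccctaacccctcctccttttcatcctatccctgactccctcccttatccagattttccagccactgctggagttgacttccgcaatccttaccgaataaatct
Runx2 held the RUNX core 3 times, all on the other strand as ACCACA, from base -80 to -75 and from 24 to 29 and 32 to 37 relative to the start site. The first of these overlaps an E-box, CACATGA, from -78 to -72. Acp5 held 1 E-box, CACATGA, from -90 to -84, in the stretch shown, which was chosen for that match, and the stretches of its other two starts held neither motif. Ctsk held neither motif. Over all stretches of 9 genes with an entry, 3 of 15 held the RUNX core (Runx2, Spp1 and Dmp1) and 3 of 15 an E-box (Runx2, Acp5 and Dmp1), where 16.8% and 7.40% of the 32851 stretches of all genes did. A match is a description of the letters and not a bound site.

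The lists of other bone genes put the members in context. Among 7 measured transcription factors of osteoblasts other than Runx2 and Sp7, 1 rose and 4 fell in WT, and 1 rose and 1 fell in Mapk9 KO, where 8.72% of all genes rose and 8.56% fell in WT and 11.0% rose and 10.8% fell in Mapk9 KO. Atf4, a stress-responsive factor needed in osteoblasts, rose at both probes, by a log2 of 1.16 ± 0.21 in WT and 1.06 ± 0.25 in Mapk9 KO at the main one (adjusted p = 0.00349 and 0.00613, limma). Dlx3, a homeobox factor, was at 9.91 to 10.74 in WT controls and at no more than 8.47 in WT injured hips, and at 9.81 to 10.72 in Mapk9 KO controls and 7.36 to 8.17 in Mapk9 KO injured hips. All its injured arrays were below all controls, and it fell 4.23-fold in WT (adjusted p = 0.000355, limma) and 5.99-fold in Mapk9 KO (adjusted p = 3.39e-05, limma). Twist1, which holds RUNX2 in check, fell 2.26-fold in WT (adjusted p = 0.00172, limma) and had a log2 fold change of -0.96 ± 0.18 in Mapk9 KO, under the fold limit. Dlx6 was not detected on WT injured arrays and was there at least 1.67-fold lower (adjusted p = 0.00124, limma). Cbfb, the partner of RUNX2, passed in WT at 1 dim probe of 3, again at least 1.67-fold lower (adjusted p = 0.0138, limma), while its 2 bright probes were at -0.11 and -0.22.

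Of 15 measured genes of bone matrix and mineralization, 2 rose and 5 fell in WT, and 4 rose and 5 fell in Mapk9 KO, against 8.72% and 8.56% of all genes in WT and 11.0% and 10.8% in Mapk9 KO. Their median log2 fold change at the main probe was 0.33 in WT and -0.02 in Mapk9 KO. Ifitm5, a membrane protein of mineralizing osteoblasts, fell the most in the list, 4.26-fold in WT (adjusted p = 0.00012, limma) and 8.47-fold in Mapk9 KO (adjusted p = 1.24e-05, limma). Col1a2, a chain of type I collagen, fell 2.76-fold in WT and 5.42-fold in Mapk9 KO (adjusted p = 0.0028 and 2.31e-05, limma). Enpp1 and Ank, which supply extracellular pyrophosphate, were higher post injury: Enpp1 rose 2.04-fold in WT and 2.59-fold in Mapk9 KO (adjusted p = 0.00719 and 0.000784, limma), and Ank rose 2.23-fold in Mapk9 KO (adjusted p = 0.000834, limma) with a log2 fold change of 0.95 ± 0.21 in WT. Of the phosphate transporters, Slc20a2 fell 2.54-fold in WT and 2.48-fold in Mapk9 KO (adjusted p = 0.00127 and 0.00016, limma), and Phospho1, a phosphatase of matrix vesicles, fell 2.09-fold in WT (adjusted p = 0.0214, limma).

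The other genes of that list that passed were named after their values were seen. Slc20a1 rose at 2 of 3 probes in both genotypes, neither of which was detected on any control array, but not at the main one, which was detected on all 12 arrays (0.44 in WT and 0.42 in Mapk9 KO). The osteocalcin gene Bglap1 fell at 1 of 3 probes, by 1.69 ± 0.32 on the log2 scale in WT and 2.69 ± 0.38 in Mapk9 KO (adjusted p = 0.00434 and 0.000249, limma), while the 2 brighter probes, which did not pass, were at 0.33 and 0.36 in WT and at -0.16 and -0.33 in Mapk9 KO. The falling probe was detected on 2 of 3 WT and 1 of 3 Mapk9 KO injured arrays, so the size of its fall is uncertain. The osteocalcin genes are near-identical copies, so their signals may be shared. Col1a1 fell (2.06-fold) and Panx3 rose (2.08-fold) in Mapk9 KO. The same Panx3 probe is counted again among the hypertrophic chondrocyte markers below. None of the 3 measured osteocyte genes, Mepe, Pdpn and Fam20c, passed in either genotype, where 17.3% of all genes passed in WT and 21.8% in Mapk9 KO.

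**Figure D3:**
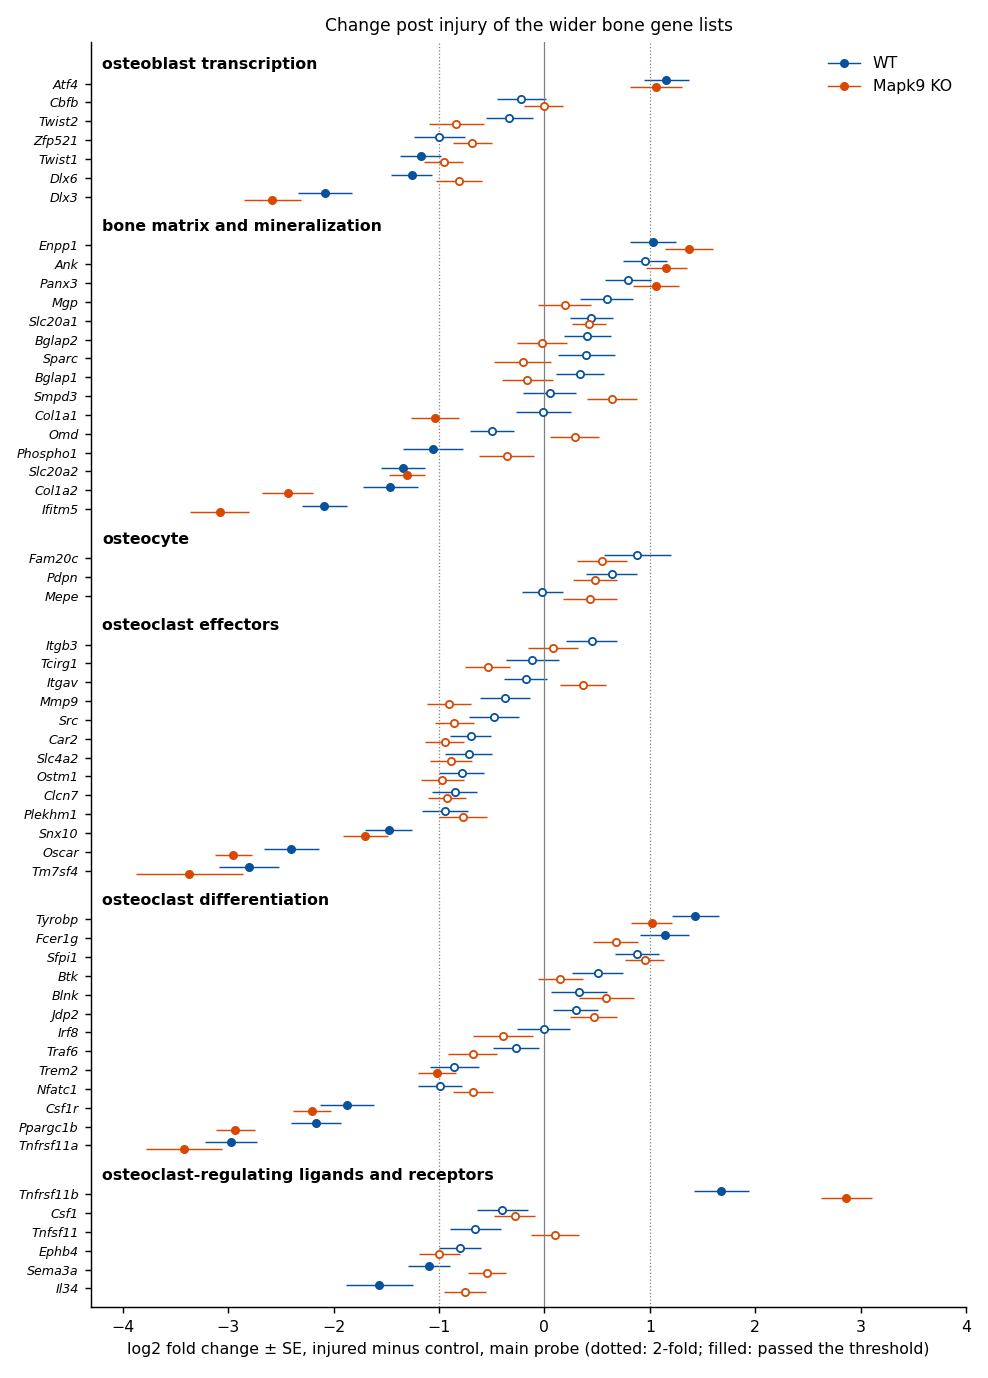
Log2 fold changes of injured against control at the main probe (x axis, ± SE, limma, 3 arrays per group) are shown for the reported genes of the 6 wider bone lists (y axis) in WT and in Mapk9 KO. Filled points passed the threshold at that probe, so Cbfb, Bglap1, Slc20a1, Nfatc1 and Itgav, which passed at another probe, are open. Tnfrsf11b lies furthest right in both genotypes. The points of Tm7sf4, Il34 and Twist2 and the WT point of Dlx6 rest on injured arrays where the probe was not detected, so their places are not ranked.

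Other genes on which osteoclasts depend were followed in a list of effectors and a list of differentiation. Of 13 measured effectors, genes of acid secretion, adhesion, fusion and vesicle traffic, 3 fell and 0 rose in WT, and 4 fell and 0 rose in Mapk9 KO, where 8.56% and 10.8% of all genes fell. Their medians were -0.72 and -0.90. Tm7sf4, also known as Dcstamp and needed for the fusion of osteoclast precursors, was at 7.42, 7.26 and 7.41 in WT controls and 7.19, 7.74 and 7.29 in Mapk9 KO controls, and was not detected on any injured array. It was therefore at least 2.87-fold lower in WT and at least 2.93-fold lower in Mapk9 KO (adjusted p = 0.000121 and 0.000438, limma). Oscar, a collagen receptor that costimulates osteoclast formation, was at 10.25, 9.70 and 9.79 in WT controls and 7.19, 7.35 and 7.99 in WT injured hips, and at 9.84, 9.98 and 9.71 and 6.67, 7.02 and 6.98 in Mapk9 KO. Its groups stood well apart, and it fell 5.29-fold in WT and 7.74-fold in Mapk9 KO (adjusted p = 0.000165 and 8.35e-07, limma). Snx10, a sorting nexin needed for the ruffled border, fell 2.79-fold and 3.25-fold (adjusted p = 0.0012 and 0.000124, limma). Itgav, the alpha chain of the vitronectin receptor, passed in Mapk9 KO at 1 of 4 probes, just past the fold limit (adjusted p = 0.0148, limma), with 2 of 3 injured arrays detected.

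Of 13 measured genes of osteoclast differentiation, 2 rose and 4 fell in each genotype, against 8.72% and 8.56% of all genes in WT and 11.0% and 10.8% in Mapk9 KO. The medians were -0.01 in WT and -0.39 in Mapk9 KO. Tnfrsf11a, which encodes RANK, was at 8.86, 8.83 and 8.18 in WT controls and 5.58, 5.43 and 5.93 in WT injured hips. In Mapk9 KO it was at 8.70, 9.02 and 7.94 in controls and 5.17, 5.83 and 4.40 in injured hips. It was detected on all controls and on only 1 of 3 injured arrays in each genotype. Its fitted log2 fold change was -2.98 ± 0.25 in WT and -3.42 ± 0.36 in Mapk9 KO (adjusted p = 3.56e-05 and 3.44e-05, limma), sizes that are uncertain because the injured levels lay mostly below detection. Csf1r, the receptor of M-CSF, fell 3.67-fold and 4.62-fold at its main probe (adjusted p = 0.000648 and 6.4e-06, limma), and Ppargc1b, a coactivator of mitochondrial genes used by osteoclasts, fell 4.49-fold and 7.64-fold (adjusted p = 0.000179 and 8.99e-07, limma). Trem2, a receptor that signals through Tyrobp, fell 2.03-fold in Mapk9 KO (adjusted p = 0.00103, limma) and had a log2 fold change of -0.86 ± 0.23 in WT.

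In the same list the adaptor Tyrobp (DAP12) rose 2.70-fold in WT and 2.02-fold in Mapk9 KO (adjusted p = 0.00139 and 0.00225, limma), and the adaptor Fcer1g rose 2.21-fold in WT (adjusted p = 0.006, limma). Both adaptors are also used by other myeloid cells. Nfatc1, the master transcription factor of osteoclasts, named after its values were seen, gave no single direction: 1 probe fell in WT (-1.19 ± 0.35) and another rose in Mapk9 KO (1.05 ± 0.23), while the main probe was at -0.99 and -0.68 and did not pass. The probe that fell was detected on 1 of 3 WT injured arrays, and the one that rose on 2 of 3 Mapk9 KO controls.

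The signals that osteoclast precursors receive were followed in 6 genes, of which 1 rose and 2 fell in WT and 1 rose and 0 fell in Mapk9 KO, where 17.3% and 21.8% of all genes passed. Tnfrsf11b encodes osteoprotegerin, the decoy that binds RANK ligand. It was at 11.47, 10.47 and 10.99 in WT controls and 12.82, 12.67 and 12.48 in WT injured hips, and at 10.61, 10.40 and 9.68 in Mapk9 KO controls and 13.25, 13.05 and 12.98 in Mapk9 KO injured hips. All injured arrays were above all controls, and it rose 3.20-fold in WT (adjusted p = 0.00144, limma) and 7.28-fold in Mapk9 KO (adjusted p = 7.07e-06, limma). The difference between the 2 effects was 1.19 ± 0.38 on the log2 scale and did not pass (adjusted p = 0.347, limma).

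Tnfsf11, which encodes RANK ligand and is named after its values were seen, did not pass in either genotype. It was at 8.67, 8.47 and 8.30 in WT controls and 7.69, 7.51 and 8.27 in WT injured hips, and at 7.94, 7.82 and 7.68 in Mapk9 KO controls and 7.89, 7.48 and 8.37 in Mapk9 KO injured hips. The WT injured arrays were below the WT controls and the Mapk9 KO groups overlapped. Its log2 fold changes were -0.66 and 0.10, with a difference of 0.76 ± 0.34 (adjusted p = 0.486, limma). Il34, the other ligand of the M-CSF receptor, was detected on 2 of 3 WT controls and on no other array, and in WT injured hips was at least 1.23-fold lower (adjusted p = 0.00573, limma). Sema3a, a semaphorin that restrains osteoclasts, fell 2.14-fold in WT (adjusted p = 0.00313, limma). Only 1 of 3 WT injured arrays detected Sema3a, so the size of its fall is uncertain.

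**Figure D4:**
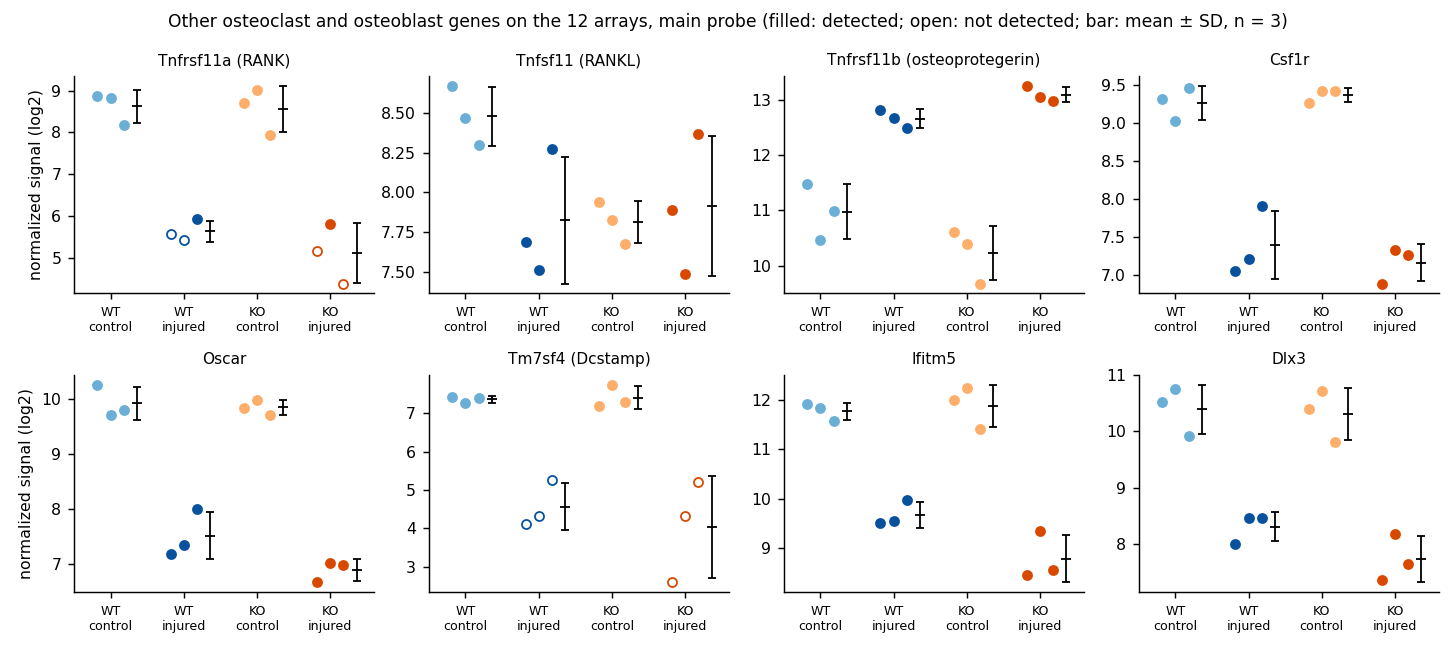
Log2 normalized signals of every array (y axis) are shown in the 4 groups (x axis) for the main probes of Tnfrsf11a (RANK), Tnfsf11 (RANK ligand), Tnfrsf11b (osteoprotegerin), Csf1r, Oscar, Tm7sf4, Ifitm5 and Dlx3. Filled points were detected, open points were not, and bars give the mean ± SD of 3 arrays. In both genotypes the receptor RANK sits at 4.40 to 5.93 on injured arrays against 7.94 to 9.02 on controls, osteoprotegerin moves the other way, and RANK ligand shows no shared direction.

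Markers of other cell types moved with injury, and their part in these results was not tested. Their counts stand against 8.72% of all genes rising and 8.56% falling in WT, and 11.0% and 10.8% in Mapk9 KO. All 8 skeletal muscle markers fell in both genotypes, and their summed linear level was 49460 to 64734 in WT controls against 5024 to 22906 in WT injured hips, and 74757 to 119821 against 6426 to 19117 in Mapk9 KO. Of 10 macrophage markers, 2 rose and 6 fell in WT and 2 rose and 7 fell in Mapk9 KO, and the rising ones were Cd14 and Lyzs. Csf1r is on this list as well as on that of osteoclast differentiation. The summed macrophage level was higher post injury, at 19904 to 23681 against 9337 to 13248 in WT and 20825 to 28093 against 11858 to 14415 in Mapk9 KO, and Cd14 alone rose by a log2 of 5.01 in WT and 5.33 in Mapk9 KO. The log2 fold changes in WT and Mapk9 KO were -1.85 and -2.81 for C1qa and -1.44 and -1.54 for Mrc1.

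The cartilage markers Acan and Sox9 were detected on all 12 arrays, and 6 of 9 measured chondrocyte markers rose and 1 fell in WT, while 7 rose in Mapk9 KO. The one that fell, Col11a1, did so at 1 of 3 probes, while its main probe was at 0.85 in WT. Their summed level was 42355 to 62762 in WT controls and 83060 to 99917 in WT injured hips, and 41776 to 67230 and 74756 to 94213 in Mapk9 KO. Of 5 hypertrophic chondrocyte markers, cells that share Runx2, Ibsp, Spp1 and Alpl with osteoblasts, 2 rose and 1 fell in WT (Mmp13 at 1 of 3 probes, with its main probe at 0.62) and 4 rose in Mapk9 KO, with sums of 18318 to 27710 against 41480 to 50310 in WT and 17232 to 30161 against 37975 to 44207 in Mapk9 KO. Neutrophil markers rose in 5 of 8 genes in WT and 4 of 8 in Mapk9 KO. Of the 4 measured adipocyte markers, 2 fell in WT and 3 in Mapk9 KO, of 6 erythroid markers 1 fell in each, and of 7 endothelial markers 1 rose in WT and 0 in Mapk9 KO. For the difference between the 2 injury effects no marker passed. At the main probe all muscle (median -1.23), neutrophil, erythroid and adipocyte markers lay below 0. So did 8 of 10 macrophage, 5 of 7 endothelial, 4 of 9 chondrocyte and 2 of 5 hypertrophic markers. Their part in the larger falls of Acp5 and Ctsk in Mapk9 KO was not tested.

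The genes most like each member over the 12 arrays were found by the root mean square difference of log2 values centred on each probe's mean. For Sp7 these were Gpr137b-ps, Rcan3 and Unc5b, from 0.0923 to 0.102, where Sp7 itself varied by 0.632 around its mean. For Ctsk they were Ckb, Sdf4 and Hyal2, from 0.144 to 0.165, against its own 0.681. For Acp5 they were Ms4a7, Kazald1 and Grin3a, from 0.248 to 0.280 against 1.01, for Phex they were Gsg1, Hoxb4 and D930024H10Rik, from 0.203 against 0.676, and for Runx2 they were Artn, E030040G24Rik and B230363H02Rik, from 0.197 to 0.249 against 0.824. The pattern of Runx2 rests in part on background, since its probe was detected on 7 of the 12 arrays. Among these 5, the neighbours of Sp7 lay closest to their member. Of the members that did not pass, Alpl varied by 0.271, Ibsp by 0.250 and Spp1 by 0.207, and their neighbours (for Alpl, Nrp1, BC003940 and Rbfox2, for Ibsp, Gosr2, Lrrc49 and Gtf3c3, and for Spp1, Rpl35a, LOC270037 and Itch) lay at 0.0861 to 0.124. Dmp1, detected on 4 of the 12 arrays, was not compared in this way.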

How the data were processed

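RNA of murine hip cartilage was measured on Illumina mouse BeadChips in 12 samples, grouped by their deposited labels. The deposited intensity file holds the bead signal intensity of 45281 probes with no correction, and a detection p-value per probe and array, both as deposited. The authors subtracted background measured on negative controls, applied vsn (version not given in the sources used here) and deposited log2 values for 21004 probes. The filter behind that number is not given.

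Gene names were updated through a RefSeq table (assembly GRCm38.p6): 14485 probes by accession, 158 by gene ID, 2496 by symbol, 1558 by an older symbol, and 2307 kept the name in the file. The members and gene lists were chosen with earlier results of these data known. Every probe was fitted with limma 3.58.1 (lmFit, eBayes) in R 4.3.3, each pair of groups on its own 6 arrays, and the interaction and the average effect on all 12. The fit was tested on simulated data. From each wider list up to 6 genes past the threshold were named, by the largest change at the main probe, and exceptions are marked in the text. One gene of the bone matrix list and a probe that it shares are not reported here. In both genotypes the replicate numbers paired the samples: deviations from the group means correlated from 0.153 to 0.390 between samples of 1 number (18 pairs) and from -0.289 to 0.0825 otherwise, so each comparison was also fitted with that number as a blocking term. For a single probe, 3 arrays against 3 allow no exact permutation p below 0.1. Alternatives were 2 other normalizations, array medians subtracted, a filter on detection (at least 3 arrays), 2 blocks, Student's test of each probe alone, 1 probe per gene, no fold limit, all 12 arrays in the fit and each array left out.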

Additional observations from a re-analysis of the deposited data

How the results depend on the processing

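The count of osteoblast and osteoclast genes past the threshold in WT was 4. It was 1 by Student's test of each probe alone (Sp7) and between 2 and 4 with 1 array left out, 2 without WT injured replicate 2, when Acp5 and Phex were lost. Over all settings it ran from 1 to 5. In Mapk9 KO it was 5 in the fit of the text and 4 to 5 elsewhere, and for the average effect 5, and 4 to 6 elsewhere. No member passed for genotype or for the interaction under any alternative run. With the replicate block the counts of members were 4 in WT, 5 in Mapk9 KO and 0 for genotype and interaction, so the pairing changed none of these calls, but over all probes it moved the interaction from 0 to 112 and genotype in injured hips from 38 to 188. Without WT control replicate 3 the interaction count was 242. Over all probes, WT calls ran from 1140 to 5319 (3086 in the text), Mapk9 KO calls from 1756 to 8045 (3934), genotype calls in controls from 0 to 412 (25) and those of the average effect from 1413 to 9819 (3354). The lowest injury counts came from quantile normalization without background correction and the highest from dropping the fold limit. Alpl in WT ranged from -0.25 to 0.0459 with 1 array left out, and was above 0 without control replicate 1 or injured replicate 1. Cbfb in Mapk9 KO, at -0.01 in the text's fit, reversed at its main probe to 0.00830 and 0.00808 with quantile normalization with and without background correction, and ranged from -0.16 to 0.117 with 1 array left out. The cause of these changes was not tested. Signal over background limits Calcr, detected on 0 of the 12 arrays, and Runx2 and Dmp1, whose probes in the table were detected on 7 and 4. Acp5 was detected on all 12 arrays, but only just on the Mapk9 KO injured ones.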

Other observations

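Sparc, a collagen-binding protein of bone, was the single gene of the wider bone lists that differed between genotypes, and it did so at 1 of its 4 probes. There the log2 difference of Mapk9 KO from WT was -3.17 ± 0.28 in controls (adjusted p = 0.00083, limma) and -3.18 ± 0.38 in injured hips (adjusted p = 0.00787, limma). At the main probe it was 0.34 ± 0.32 and -0.26 ± 0.21, and neither the main probe nor the other two passed. The gene was named after its values were seen.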
